A study of Rattus norvegicus with 9 samples.

Results

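Immediate early genes are the first genes that a cell transcribes when a growth factor, cytokine, injury or depolarising signal reaches it, and several of their products are transcription factors. Of 10 such genes sought (Fos, Fosb, Jun, Junb, Egr1, Atf3, Ier2, Nr4a1, Dusp1 and Btg2), 7 were measured, each by 1 probe that the platform annotation assigns to the gene. Fosb, Nr4a1 and Btg2 had 0 named probes in the table and are not analysed here. The 7 genes stand among 7574 named genes and 10552 probes in all. Lesions of the caudal cerebellar peduncle, a fibre bundle that joins the medulla to the cerebellum, were sampled 5, 14 and 28 days after demyelination (days post lesion, dpl). Each age has 3 arrays. All groups share 1 lesion and 1 strain: Sprague Dawley rats, 12 weeks old at the time of the lesion, received 0.1% ethidium bromide, and the lesioned area was isolated by laser capture. Where ethidium bromide is injected, oligodendrocytes and astrocytes die, and remyelination follows. No unlesioned tissue was analysed here, so each comparison is between lesion ages. The series' design text calls the 3 arrays biological replicates. No label ties an array to an animal, so the p-values rest on the spread between arrays, which may be technical.

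In most cells the early genes are held ready for transcription without new protein synthesis. Mitogen-activated protein (MAP) kinases phosphorylate ternary complex factors that sit with the serum response factor on CArG boxes, and phosphorylated CREB acts on cyclic AMP response elements (CRE). Fos, Jun and Junb encode subunits of the dimeric factor AP-1, Atf3 encodes a stress-induced factor of the same leucine zipper class, and Egr1 encodes a zinc finger factor. Ier2 encodes a short-lived nuclear protein, and Dusp1 encodes a phosphatase that switches MAP kinases off. In nervous tissue Jun and Atf3 are best known as genes of the injury response of neurons and Schwann cells, and macrophages induce several of the set when activated.

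The promoters of 4 of the 7 measured genes were available from RefSeq (assembly GRCr8), and they are shown because these elements are the known entry points of the signals that the set reads. Each line gives the 250 bases before the annotated start site on the gene's own strand, with matches to the searched elements in capitals.
Junb, chr19:40080876-40081125, plus strand: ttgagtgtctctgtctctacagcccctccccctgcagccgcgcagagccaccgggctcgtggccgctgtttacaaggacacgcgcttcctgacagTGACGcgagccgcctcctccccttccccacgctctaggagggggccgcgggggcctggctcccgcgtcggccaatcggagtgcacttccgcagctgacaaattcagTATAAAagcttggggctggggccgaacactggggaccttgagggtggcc
Egr1, chr18:26736828-26737077, plus strand: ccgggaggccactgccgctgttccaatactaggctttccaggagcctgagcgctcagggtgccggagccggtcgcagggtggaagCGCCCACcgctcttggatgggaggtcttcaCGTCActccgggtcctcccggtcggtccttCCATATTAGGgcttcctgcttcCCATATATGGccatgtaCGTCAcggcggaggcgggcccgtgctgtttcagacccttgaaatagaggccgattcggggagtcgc
Ier2, chr19:40399123-40399372, plus strand: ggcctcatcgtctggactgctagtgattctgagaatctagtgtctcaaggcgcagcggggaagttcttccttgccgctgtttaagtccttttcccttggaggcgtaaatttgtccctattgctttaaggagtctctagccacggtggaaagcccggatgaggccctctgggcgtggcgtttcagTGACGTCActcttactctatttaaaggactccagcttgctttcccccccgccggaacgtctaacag
Dusp1, chr10:17184603-17184852, plus strand: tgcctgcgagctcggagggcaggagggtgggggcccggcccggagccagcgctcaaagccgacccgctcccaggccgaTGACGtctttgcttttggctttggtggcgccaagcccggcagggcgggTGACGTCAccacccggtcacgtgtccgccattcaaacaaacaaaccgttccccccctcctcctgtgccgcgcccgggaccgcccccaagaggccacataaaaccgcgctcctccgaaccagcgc

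The elements were searched on both strands. The full CRE, TGACGTCA, was found in Ier2 and Dusp1, against 3.01% of 6586 promoters of genes in the table. Its short form, TGACG, which the full element contains, was found in all 4 of these promoters, against 28.7%. The Egr1 window held 2 CArG boxes, from -105 to -96 and from -83 to -74 relative to the start site, against 1.02% of promoters with at least 1. It also held the short Egr element, GTGGGCG, on the opposite strand (12.1% of promoters). The TATA element, TATAAA, was found in Junb, from -49 to -44, against 7.36%. The AP-1 element, TGANTCA, and the long Egr element, GCGTGGGCG, were found in 0 of the 4. A match describes letters in the window and shows no use of the element in these lesions.

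Values are the authors' normalized log2 values. The arrays hold nearly the same sorted values, so each value is relative to its array. All 7 genes were above the background level estimated for this table (at most 7.31) on every array. The lowest value was that of Fos, 8.01 on 14 dpl replicate 1. One array stood apart: 5 dpl replicate 1 had a summed level of 11 neuron markers of 16625 on the linear scale, against 2611 and 3458 on the other 5 dpl arrays. Its first principal component (70.1% of the variance) was -23.7, against -37.7 on both others.

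The set did not move as one. Atf3 was lower at 14 and at 28 dpl than at 5 dpl, Dusp1 was lower at 14 dpl than at 5 dpl, and at 28 dpl Junb was lower and Egr1 higher than at 5 dpl. Of 18 alternative ways of running the fit, described below, the call was lost in 10 for Junb, 7 for Egr1, 5 for Dusp1 and 0 for Atf3. Fos, Jun and Ier2 passed the test in 0 of the 3 comparisons. Between 14 and 5 dpl 2 of 7 genes passed, both lower, against 20.8% of all probes passing in either direction and 10.1% lower. Between 28 and 14 dpl 0 passed with limma, against 15.0% of all probes passing (7.49% higher and 7.48% lower). At an unadjusted p under 0.05, 2 were higher, Jun and Dusp1. The share of all probes at that looser threshold was not counted. Between 28 and 5 dpl 3 of 7 passed, 2 lower and 1 higher, against 44.3% of all probes (24.1% lower and 20.2% higher). In the test for any difference among the time points 2 of 7 passed, Atf3 and Dusp1, against 41.4% of all probes. With 7 genes, these counts do not set the genes apart from all probes. The median difference of the 7 genes was -0.10 for 14 against 5 dpl, -0.00083 for 28 against 14 dpl and -0.07 for 28 against 5 dpl, beside -0.01, -0.01 and -0.03 over all probes.

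**Figure D1:**
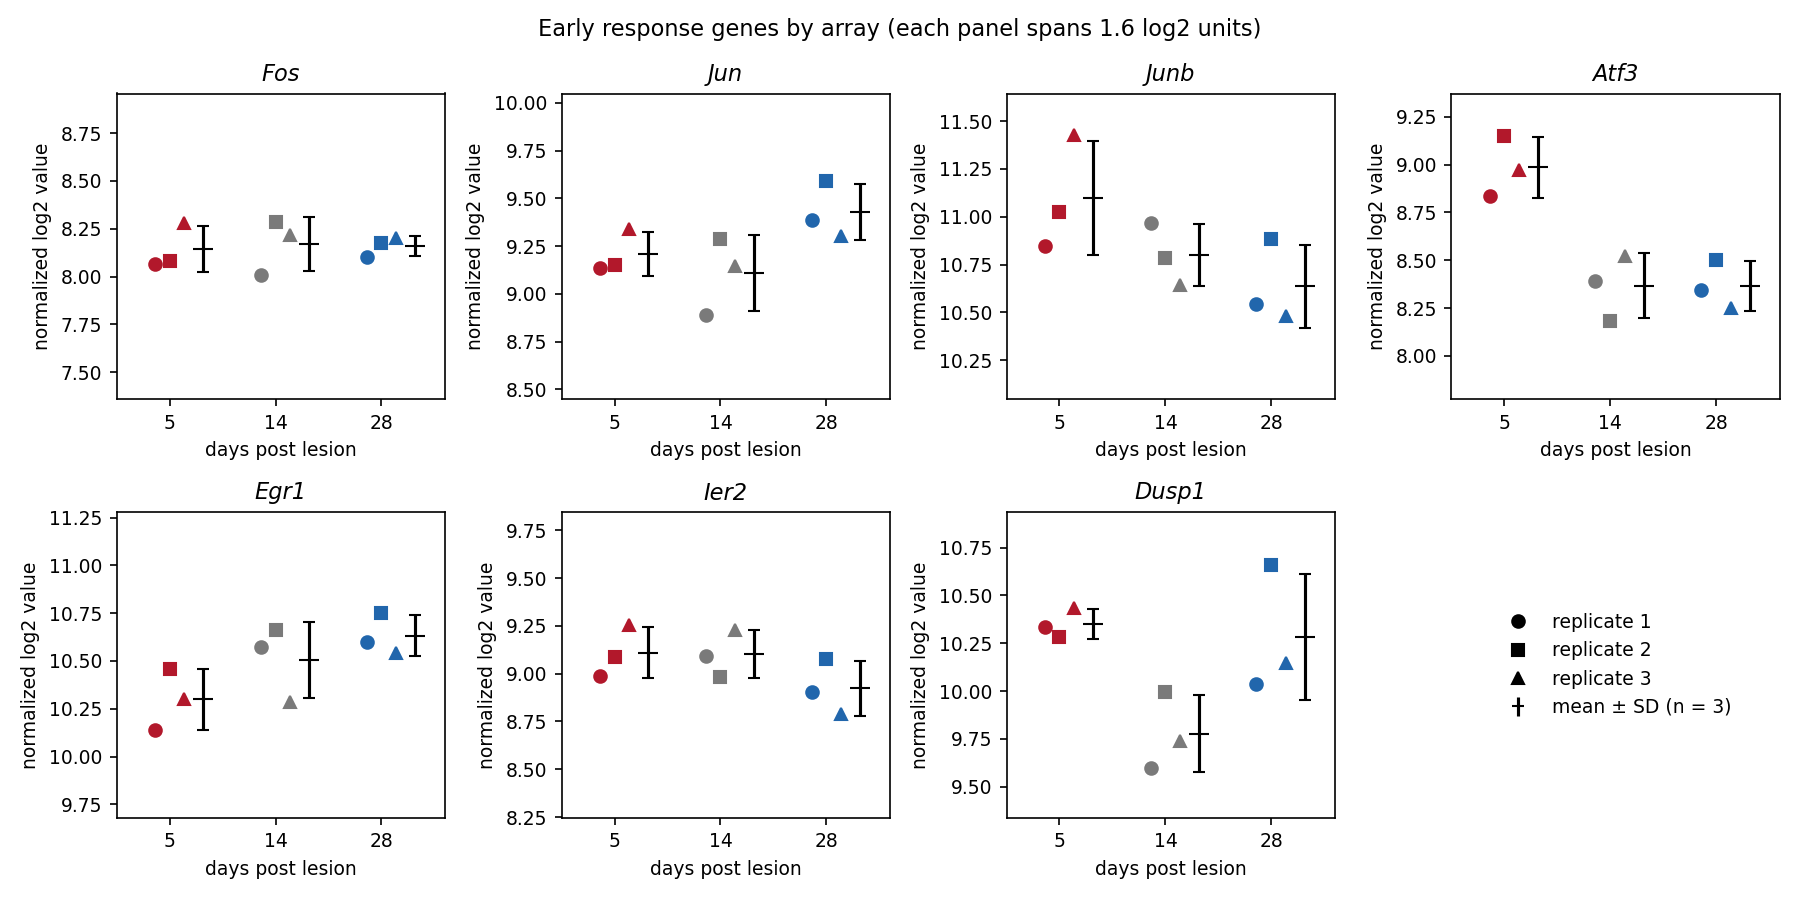
Normalized log2 value of each of the 7 genes on each of the 9 arrays by days post lesion, with the mean and SD of the 3 arrays of a time point; each panel spans the same height. The 5 dpl arrays of Atf3 lie at 8.84 to 9.15, above all later arrays, and the 14 dpl arrays of Dusp1 lie at 9.60 to 9.99, below all other arrays, while Fos stays between 8.01 and 8.29.

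Fos encodes the subunit of AP-1 that pairs with Jun proteins. Its values were 8.07, 8.08 and 8.28 at 5 dpl, 8.01, 8.29 and 8.21 at 14 dpl, and 8.10, 8.18 and 8.20 at 28 dpl. The 3 time points overlapped throughout. The difference was 0.03 (95% interval -0.17 to 0.23) for 14 against 5 dpl, -0.01 (-0.21 to 0.19) for 28 against 14 dpl and 0.02 (-0.18 to 0.22) for 28 against 5 dpl, with adjusted p-values of 0.859, 0.954 and 0.896. With 3 arrays a time point, differences of Fos that lie within these intervals are not excluded.

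Jun, an AP-1 subunit needed for the repair response of injured Schwann cells, had values of 9.13, 9.15 and 9.34 at 5 dpl, 8.89, 9.29 and 9.15 at 14 dpl, and 9.39, 9.59 and 9.31 at 28 dpl. All 28 dpl arrays were above all 14 dpl arrays, a separation that 38.8% of all probes had in one direction or the other. The 28 dpl arrays overlapped those of 5 dpl. Jun differed by 0.32 between 28 and 14 dpl (SE 0.12, 95% interval 0.06 to 0.58, adjusted p = 0.0991), by -0.10 between 14 and 5 dpl (SE 0.12, adjusted p = 0.602) and by 0.22 between 28 and 5 dpl (SE 0.12, adjusted p = 0.156).

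Junb, which encodes an AP-1 subunit that activates transcription more weakly than Jun, had values of 10.84, 11.03 and 11.43 at 5 dpl, 10.97, 10.78 and 10.65 at 14 dpl, and 10.54, 10.88 and 10.48 at 28 dpl. Replicate 2 of 28 dpl lay above replicate 1 of 5 dpl, so the 2 time points overlapped. Junb averaged 10.64 ± 0.22 at 28 dpl and 11.10 ± 0.30 at 5 dpl (SD, n = 3 each). It fell by 0.46 on the log2 scale (SE 0.16, 95% interval -0.84 to -0.09, adjusted p = 0.0465), which is 1.38-fold lower at 28 dpl. The call did not hold without 5 dpl replicate 2 (adjusted p = 0.0773) or 3 (0.138), without 14 dpl replicate 1 (0.0508), 2 (0.0669) or 3 (0.0562), or without 28 dpl replicate 1 (0.127) or 3 (0.142). It was 0.0782 with cyclic loess scaling and 0.0741 with only these time points fitted, and the difference was -0.30 without 5 dpl replicate 3. The test for any difference among the time points gave 0.107. The differences for 14 against 5 dpl, -0.30 (SE 0.16, adjusted p = 0.242), and for 28 against 14 dpl, -0.16 (SE 0.16, adjusted p = 0.563), did not pass. With array weights, the difference for 14 against 5 dpl was -0.45 (adjusted p = 0.0485).

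Atf3, induced by many kinds of stress and in injured neurons, had values of 8.84, 9.15 and 8.97 at 5 dpl, 8.39, 8.18 and 8.52 at 14 dpl, and 8.34, 8.50 and 8.25 at 28 dpl. The lowest 5 dpl array lay above the highest array of both later time points, while the 14 and 28 dpl arrays overlapped. Between 14 and 5 dpl, 38.1% of all probes separated in this way in one direction or the other, among them Atf3 and Dusp1. Atf3 averaged 8.37 ± 0.17 at 14 dpl and 8.99 ± 0.16 at 5 dpl (SD, n = 3 each), which is 1.54-fold lower at 14 dpl. It fell by 0.62 on the log2 scale (SE 0.11, 95% interval -0.88 to -0.36, adjusted p = 0.0057). The mean at 28 dpl was 8.37 ± 0.13. Against 5 dpl it fell by 0.62 (SE 0.11, 95% interval -0.88 to -0.36, adjusted p = 0.00235), and against 14 dpl the difference was -0.00083 (95% interval -0.26 to 0.26, adjusted p = 0.997). Both falls from 5 dpl passed under all 18 alternatives run, with differences between -0.70 and -0.53.

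Egr1, a growth factor-induced factor whose corepressors are encoded by Nab1 and Nab2, had values of 10.14, 10.46 and 10.30 at 5 dpl, 10.57, 10.66 and 10.28 at 14 dpl, and 10.60, 10.75 and 10.54 at 28 dpl. All 28 dpl arrays were above all 5 dpl arrays, as the arrays of 53.8% of all probes separated in one direction or the other, while those of 14 dpl overlapped both. Egr1 averaged 10.63 ± 0.11 at 28 dpl and 10.30 ± 0.16 at 5 dpl (SD, n = 3 each), and rose by 0.33 (SE 0.12, 95% interval 0.07 to 0.60, adjusted p = 0.045), or 1.26-fold. The call did not hold without 5 dpl replicate 1 (0.12) or 3 (0.0955), 14 dpl replicate 1 (0.0577), or 28 dpl replicate 1 (0.0844), 2 (0.134) or 3 (0.0604), nor with array weights (0.091). The test for any difference gave 0.106. The difference was 0.20 for 14 against 5 dpl (SE 0.12, adjusted p = 0.262) and 0.13 for 28 against 14 dpl (SE 0.12, adjusted p = 0.522).

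Ier2 had values of 8.99, 9.09 and 9.25 at 5 dpl, 9.09, 8.98 and 9.23 at 14 dpl, and 8.91, 9.08 and 8.79 at 28 dpl. The time points overlapped. Its differences were -0.01 (95% interval -0.24 to 0.22) for 14 against 5 dpl, -0.18 (-0.41 to 0.05) for 28 against 14 dpl and -0.19 (-0.41 to 0.04) for 28 against 5 dpl, with adjusted p-values of 0.97, 0.277 and 0.167.

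Dusp1, the MAP kinase phosphatase that the same kinases and glucocorticoids induce, had values of 10.33, 10.28 and 10.44 at 5 dpl, 9.60, 9.99 and 9.74 at 14 dpl, and 10.04, 10.66 and 10.15 at 28 dpl. All 14 dpl arrays were below all arrays of the other time points, and the 28 dpl arrays lay on both sides of those of 5 dpl. Dusp1 averaged 9.78 ± 0.20 at 14 dpl and 10.35 ± 0.08 at 5 dpl (SD, n = 3 each). It fell by 0.57 on the log2 scale (SE 0.16, 95% interval -0.94 to -0.21, adjusted p = 0.0352), or 1.49-fold. The call was lost when any 1 of the 5 dpl arrays was left out (0.0562, 0.0714 and 0.107 for replicates 1, 2 and 3), and when 14 dpl replicate 1 (0.101) or 3 (0.104) was. The mean at 28 dpl was 10.28 ± 0.33, which differed by 0.51 from 14 dpl (SE 0.16, 95% interval 0.14 to 0.87, adjusted p = 0.0674) and by -0.07 from 5 dpl (95% interval -0.43 to 0.30, adjusted p = 0.765). A contrast of 14 dpl with the mean of 5 and 28 dpl was added after these values had been seen. It gave -0.54 for Dusp1 (SE 0.14, adjusted p = 0.0712) and -0.31 for Atf3 (SE 0.10, adjusted p = 0.122), and 0 of 7 genes passed with limma (2 at an unadjusted p under 0.05). The share of all probes that passed this contrast was not counted at either threshold, so these counts cannot be set against it.

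**Figure D2:**
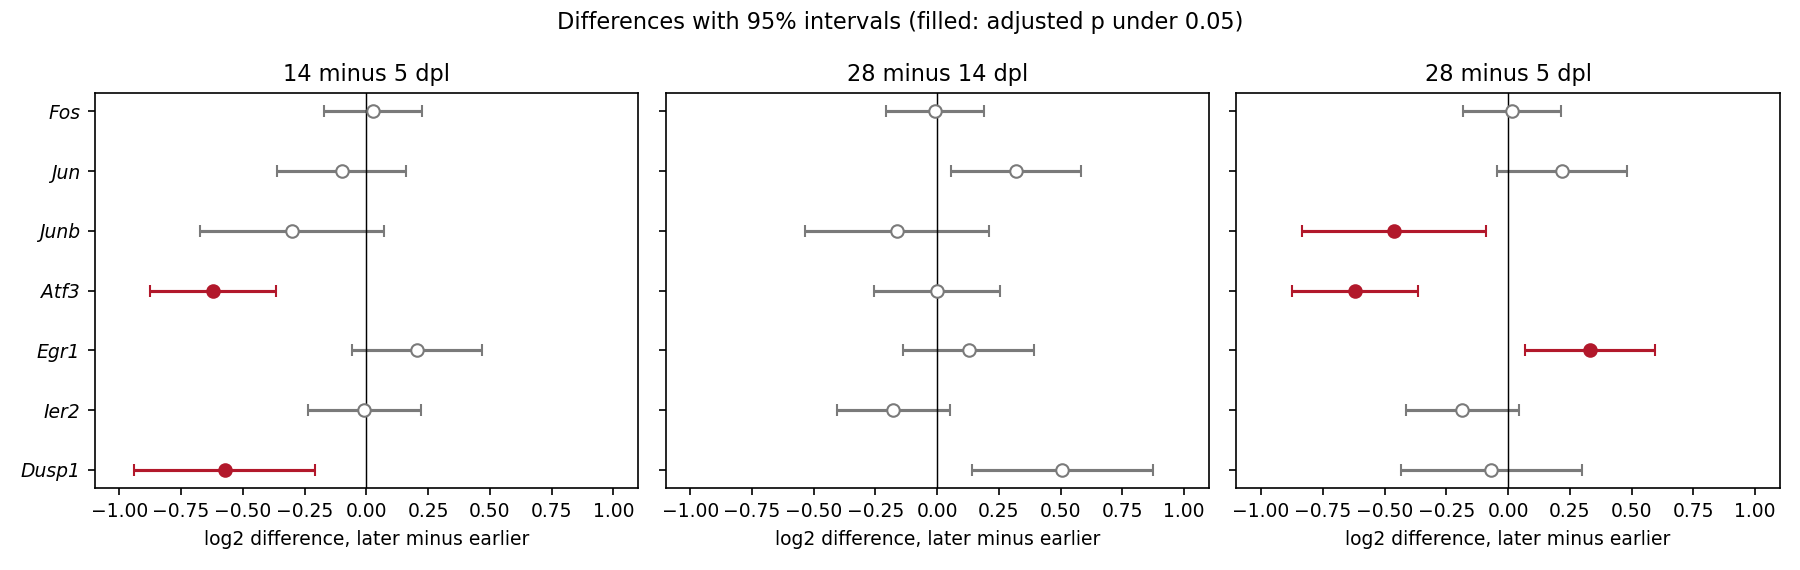
Log2 differences (later minus earlier time point, x axis) of the 7 genes (y axis) for the 3 comparisons, with 95% intervals of the limma fit; filled points passed an adjusted p of 0.05. Atf3 lies at -0.62 in both comparisons with 5 dpl and at 0 between 28 and 14 dpl, whereas the intervals of Fos include 0 throughout.

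Spread between arrays of 1 time point was wider for Junb and Dusp1 than for most probes. Their pooled SDs were 0.23 and 0.23, larger than those of 89.6% and 89.2% of all probes, whereas Fos, at 0.11, was near the median of all probes, 0.10. The SD of the other 4 genes was 0.13 to 0.16. At 28 dpl replicate 2 was the highest of the 3 arrays for 6 of 7 genes, all but Fos. It was the highest for 36.3% of all probes and for 30 of 60 other early response genes. These 60 are the leucine zipper, mixed regulator and effector lists described below. At 5 dpl replicate 3 was the highest for 5 of 7, all but Atf3 and Egr1, beside 31.3% of all probes and 32 of the 60. That array also had the highest sum of 8 lymphocyte markers, 6863 against 3492 and 4029 on the other 5 dpl arrays. The Junb call did not hold without that array, nor without several others named above. The part of lymphocytes in the Junb difference was not tested. At 5 dpl replicate 1 was the lowest for 6 of 7, all but Dusp1, beside 44.9% of all probes. The widest single deviation was that of Dusp1 on 28 dpl replicate 2, 0.38 above the mean of its time point. That array had the highest summed level of 11 macrophage and microglia markers at 28 dpl, 51821 against 43424 and 36312 on the linear scale. It was also the highest for neuron markers (6162 against 5008 and 5823) and lymphocyte markers (2271 against 1663 and 1586). In the lymphocyte sum, Cd8a alone was 1141 against 599.5 and 486.1. Without Cd8a the sums were 1130 against 1064 and 1100. The array was the lowest for oligodendrocyte markers (79029 against 91404 and 93041) and Schwann cell markers (27070 against 34060 and 30494). The part of these cells in the deviation was not tested.

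**Figure D3:**
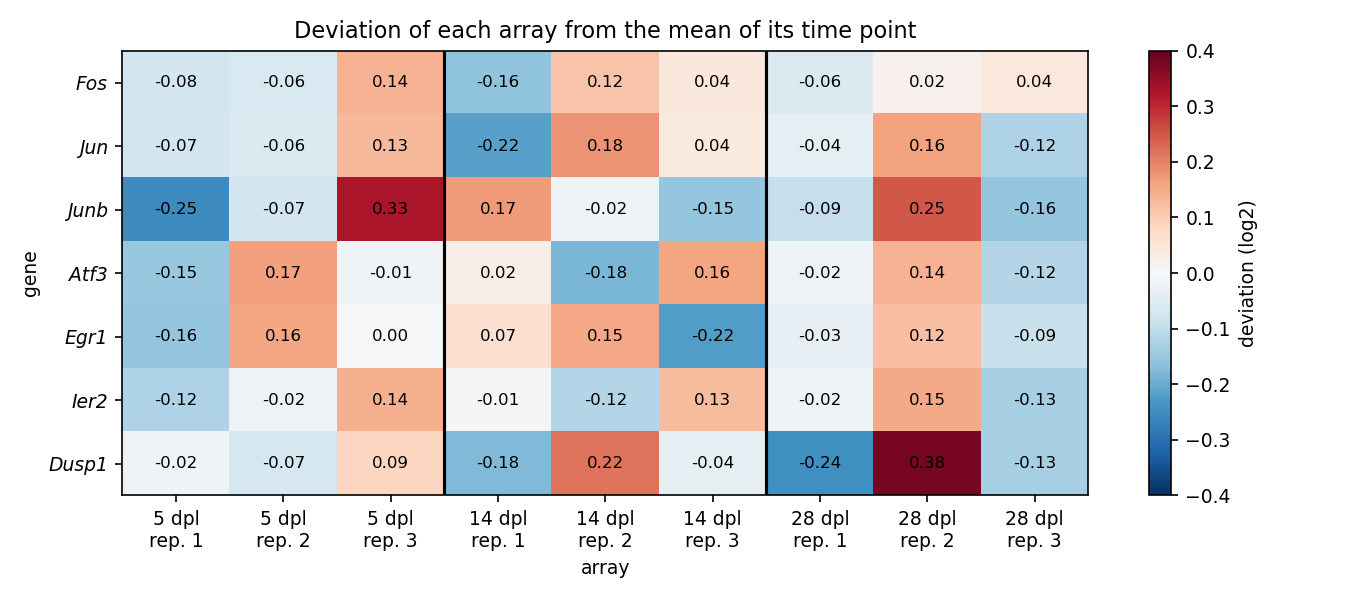
Deviation of each array (x axis) from the mean of its time point in log2 units for the 7 genes (y axis), in colour and as numbers. Replicate 2 of 28 dpl is above its mean for 7 genes, by 0.02 for Fos to 0.38 for Dusp1, and replicate 1 of 5 dpl is below its mean for all 7.

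Among 7567 other named genes, those whose course over the 9 arrays was most like that of Atf3 were Dyrk3, which encodes a protein kinase, and Fgd6, which encodes a guanine nucleotide exchange factor. The root mean square difference of their centred values from those of Atf3 was 0.19 and 0.24 of the SD of Atf3. Both were near the background level after 5 dpl, where values have little room to differ. Dyrk3 was above the estimated background on 3 of 3 arrays at 5 dpl, with a mean of 8.03, and on 2 of 3 at 14 and at 28 dpl. Fgd6 averaged 7.84 at 5 dpl, was above background on 1 of 3 arrays at 14 dpl and on 0 at 28 dpl, and was at least 1.44-fold lower at 28 than at 5 dpl (adjusted p = 0.000143). Those most like Dusp1 were Naprt, an enzyme of NAD synthesis, and Mocos, an enzyme that sulfurates the molybdenum cofactor, at 0.41 and 0.45 of its SD. Naprt had means of 10.35, 9.67 and 10.05 at 5, 14 and 28 dpl.

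Several other leucine zipper factors had larger differences than the 7 genes. Of 20 measured (31 listed), 9 were lower (45%) and 4 higher (20%) at 28 than at 5 dpl, beside 24.1% lower and 20.2% higher over all probes. The median difference was -0.17, beside -0.03 over all probes. Batf, an AP-1 partner of lymphoid and myeloid cells, had values of 10.90, 10.99 and 11.29 at 5 dpl, 9.26, 8.84 and 9.03 at 14 dpl, and 8.20, 8.66 and 8.26 at 28 dpl. The 3 time points were separate and descending. Batf fell by 2.69 on the log2 scale at 28 against 5 dpl (SE 0.16, adjusted p = 8.78e-06) and by 2.01 at 14 against 5 dpl (SE 0.16, adjusted p = 0.000151). Cebpb, a factor of macrophage activation, averaged 10.16 ± 0.29 at 14 dpl and 11.87 ± 0.33 at 5 dpl (SD, n = 3 each) and fell by 1.72 (SE 0.22, adjusted p = 0.00118), with 10.19 ± 0.34 at 28 dpl. Its arrays at 14 and 28 dpl overlapped, as those of Atf3 did. Nfe2l2, the regulator of antioxidant genes, fell by 0.99 at 28 against 5 dpl (SE 0.14, adjusted p = 0.00062), while Atf5, a factor of the amino acid and mitochondrial stress responses, rose by 1.07 (SE 0.10, adjusted p = 8.93e-05).

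Ddit3, which encodes the stress factor CHOP, had a course like that of Dusp1 and passed in both steps. Its values were 10.23, 10.46 and 10.34 at 5 dpl, 9.66, 9.66 and 9.82 at 14 dpl, and 10.30, 10.39 and 10.16 at 28 dpl. The 14 dpl arrays were below all the others. It fell by 0.63 at 14 against 5 dpl (SE 0.09, adjusted p = 0.00139) and rose by 0.57 at 28 against 14 dpl (SE 0.09, adjusted p = 0.00412), in all 18 alternatives. This pattern, a fall at 14 dpl followed by a rise, was counted after its values had been seen. It was met by 3 of 88 genes of the 5 companion lists, Ddit3, Nfil3 and Klf4, and by 34 of 10552 probes, 0.322%. Nfil3, a repressor of the same class, fell by 0.37 and then rose by 0.63 (SE 0.09 each). Its fall did not pass when 5 dpl replicate 2 (adjusted p = 0.0527) or 3 (0.0661) was left out, nor when 14 dpl replicate 2 (0.0702) or 3 (0.0675) was. Klf4, a zinc finger factor of monocytes and endothelium, fell by 0.60 and then rose by 0.26 (SE 0.07 each). Its rise did not pass when 14 dpl replicate 1 (adjusted p = 0.1) or 3 (0.0983) was left out, nor when 28 dpl replicate 1 (0.098) or 2 (0.0719) was.

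Of 17 measured genes on a mixed list of other regulators, 5 were higher and 5 lower at 28 than at 5 dpl (29.4% each). The shares of all probes were 20.2% and 24.1%. The list held relatives of Egr1, Nr4a1 and Klf4 and a corepressor, and also regulators of other classes. Among the latter, Per1 was counted higher, and Myc and Irf1 were counted lower. The count of lower genes was 3 when 5 dpl replicate 2 or 3 was left out, 3 when 28 dpl replicate 1 or 2 was, and 2 when 28 dpl replicate 3 was. The count of higher genes was 2 over probes above background on all arrays. Egr2, the relative of Egr1 that drives myelination by Schwann cells, had values of 9.40, 9.72 and 10.03 at 5 dpl, 11.003, 11.370 and 11.165 at 14 dpl, and 11.84, 11.40 and 11.79 at 28 dpl. All later arrays were above all 5 dpl arrays. It rose by 1.96 at 28 against 5 dpl (SE 0.18, adjusted p = 6.82e-05) and by 1.46 at 14 against 5 dpl (SE 0.18, adjusted p = 0.000865), beside 0.33 and 0.20 for Egr1. Of 5 measured Schwann cell markers (Egr2 and Sox10 were taken off this list after the data had been seen), 4 were higher at 28 than at 5 dpl, and their summed linear level was 27070 to 34060 at 28 dpl and 2757 to 3210 at 5 dpl. The part of these cells in the Egr2 difference was not tested. Nab1, a corepressor of Egr1 and Egr2, fell by 0.61 at 28 against 5 dpl (SE 0.08, adjusted p = 0.000456). Klf15 and Klf9 rose by 1.24 (SE 0.10, adjusted p = 3.07e-05) and 1.20 (SE 0.22, adjusted p = 0.00267). Klf15 was above the estimated background on 1 of 3 arrays at 5 dpl, so its level on the other 2 is only a bound. Nr4a2, a relative of Nr4a1, was not above the estimated background on any 5 dpl array and was at least 1.39-fold higher at 28 dpl (adjusted p = 0.0003).

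Of 23 measured early response genes that encode other kinds of protein, 11 were lower (47.8%) and 4 higher (17.4%) at 28 than at 5 dpl, beside 24.1% and 20.2% of all probes. The median difference was -0.21, beside -0.03 over all probes. The lower ones numbered 7 without 5 dpl replicate 3 or 28 dpl replicate 1. Ier3, a regulator of apoptosis, had means of 11.18, 10.67 and 9.87 at 5, 14 and 28 dpl and fell by 1.31 at 28 against 5 dpl (SE 0.14, adjusted p = 0.000157). Mcl1, an anti-apoptotic protein, fell by 0.93 (SE 0.11, adjusted p = 0.000269) and Ier5 by 0.54 (SE 0.10, adjusted p = 0.00249). Gadd45a, induced by DNA damage and growth arrest, rose by 0.94 (SE 0.13, adjusted p = 0.000468), and Pim3, a survival kinase, by 0.57 (SE 0.10, adjusted p = 0.00241).

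Of 8 other phosphatases of the Dusp family measured, 4 were lower and 3 higher at 28 than at 5 dpl, where 24.1% of all probes were lower and 20.2% higher. The lower ones numbered 2 over probes above background on all arrays. Dusp2, counted as lower, was above the estimated background on 1 of 3 arrays at 5 dpl and on 0 at 28 dpl. Dusp6, which ERK signalling induces and which acts back on ERK, had means of 12.49, 12.59 and 12.13 at 5, 14 and 28 dpl. It fell by 0.46 at 28 against 14 dpl (SE 0.07, adjusted p = 0.00518). Over that step Dusp1 had a difference of 0.51, which did not pass (adjusted p = 0.0674). Dusp10, a phosphatase of the stress kinases JNK and p38, rose by 0.96 at 28 against 5 dpl (SE 0.10, adjusted p = 0.000139), Dusp3 rose by 0.80 (SE 0.13, adjusted p = 0.00149) and Dusp22 fell by 0.82 (SE 0.13, adjusted p = 0.00101). Of 20 measured MAP kinase pathway and serum response factor genes, 7 were lower (35%) and 3 higher (15%) at 28 than at 5 dpl, beside 24.1% and 20.2% of all probes. Map3k8, a kinase of inflammatory ERK signalling, fell by 0.80 (SE 0.16, adjusted p = 0.00435), and Map2k3, an activator of p38, by 0.46 (SE 0.10, adjusted p = 0.00497). Among the higher genes, Braf rose by 0.35 (SE 0.07, adjusted p = 0.00325) and Map2k6 by 0.37 (SE 0.09, adjusted p = 0.00712). Srf itself, chosen after its values were seen, differed by 0.08 (adjusted p = 0.409).

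The companion lists were also counted in the single steps, where 1 array could move the counts. At 14 against 5 dpl, where 10.7% of all probes were higher and 10.1% lower, 1 of 20 leucine zipper genes was higher and 5 lower. The 1 higher gene did not pass when any 5 dpl array or 14 dpl replicate 2 or 3 was left out, and the lower ones numbered 8 without 5 dpl replicate 1 and 3 without 14 dpl replicate 2 or 3. Among the 23 early response genes of other kinds 1 was higher (2 without 5 dpl replicate 3) and 7 lower, with 1 lower without 14 dpl replicate 2, 2 without 14 dpl replicate 3 and 3 without 5 dpl replicate 2 or 3. At 28 against 14 dpl, where 7.49% of all probes were higher and 7.48% lower, 4 leucine zipper genes were higher and 2 lower. Leaving out 14 dpl replicate 1 or 28 dpl replicate 1 brought the lower ones to 0, and leaving out 14 dpl replicate 3, 28 dpl replicate 2 or 28 dpl replicate 3 brought them to 1. Among the MAP kinase pathway genes 0 passed at 28 against 14 dpl with limma (0 higher and 3 lower at an unadjusted p under 0.05).

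**Figure D4:**
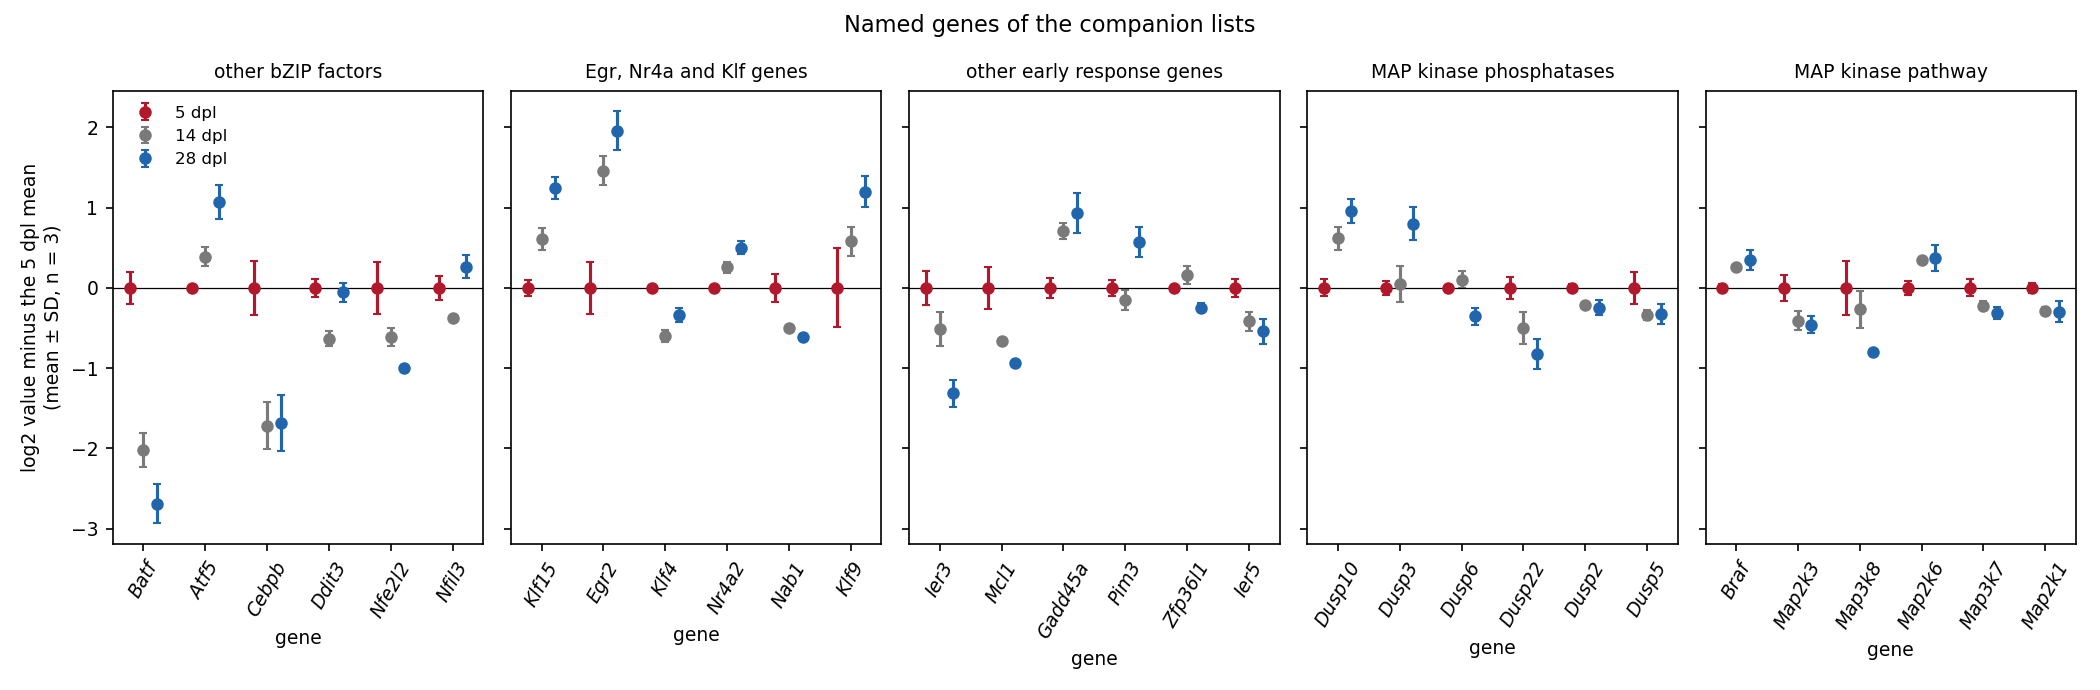
Mean log2 value at each time point minus the 5 dpl mean (y axis, with the SD of the 3 arrays) for up to 6 genes with the smallest any-difference p in each of the 5 companion lists (x axis). Batf and Cebpb lie lowest, at -2.69 and -1.68 at 28 dpl, and Egr2 lies highest, at 1.96.

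Markers of several cell types differed over the same interval. The 11 measured macrophage and microglia markers had a summed linear level between 91068 and 93853 at 5 dpl, between 70951 and 82107 at 14 dpl and between 36312 and 51821 at 28 dpl, and 10 of 11 were lower at 28 than at 5 dpl, where 24.1% of all probes were lower and 20.2% higher. The 8 lymphocyte markers summed to 3492, 4029 and 6863 at 5 dpl, between 1979 and 2451 at 14 dpl and between 1586 and 2271 at 28 dpl. Of these markers, 5 of 8 were lower at 28 than at 5 dpl. Gzmb and Cd79b, counted among the 5, averaged 7.31 and 7.32 at 5 dpl. Their falls therefore lie at the estimated background (at most 7.31) and their size is not known. Cd8a alone made up 63.9% to 68.7% of the sum at 5 dpl. Without it the sums were 1255, 1456 and 2147 at 5 dpl, 1164, 1092 and 1103 at 14 dpl, and 1064, 1130 and 1100 at 28 dpl. The 11 neuron markers had 0 members past the threshold in each comparison with limma (unadjusted p under 0.05 for 2, higher, at 28 against 14 dpl and 0 otherwise). Their sums were nevertheless separate between the later time points, 5008 to 6162 at 28 dpl against 2951 to 3377 at 14 dpl, and 11 of 11 had a positive difference there, with a median of 0.67. At 5 dpl replicate 1 had 16625, which widens the spread of these genes in the fit. Of 11 oligodendrocyte markers 11 were higher at 28 than at 5 dpl. Of 8 astrocyte markers 6 were higher and 0 lower. Their sums were between 53169 and 58769 at 28 dpl and between 10181 and 19871 at 5 dpl. Aqp4, 1 of the 6, was not above the estimated background on any array. Of 5 neutrophil markers 3 were lower and 0 higher at 28 than at 5 dpl. Csf3r, 1 of the 3, was not above the estimated background on any array. The sums were between 1868 and 8383 at 28 dpl and between 4339 and 4538 at 5 dpl. They are led by Lcn2, which had log2 values of 10.36, 12.14 and 12.93 at 28 dpl and did not pass (adjusted p = 0.891). Of 6 endothelial and pericyte markers 1 was higher and 2 were lower, and their sums overlapped. The part of these cells in the differences above was not tested, and in such tissue samples fewer cells of a type and less RNA per cell cannot be told apart.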

How the data were processed

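Illumina arrays of laser-captured rat lesions were analysed, 3 per time point. The authors' deposited normalized table holds log2 values of 10552 probes, whose quantile normalization is judged from the values. From the deposited raw table only the detection p-value was used. Its 9 columns of raw signal were not used, because its columns carry no replicate number and it shares 0 identifiers with the normalized table. Taking the 10552 of 22226 targets detected (p at most 0.01) on at least 1 array as the probes of the normalized table, which could not be checked, gave a background level of 7.25 to 7.31. Detected targets numbered 8727 to 9330 per array, and the number of arrays limits precision. The sources used here name no upstream software.

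All probes were fitted in limma 3.58.1 (R 4.3.3; lmFit, eBayes) with a mean per time point, Benjamini-Hochberg adjustment and a threshold of 0.05. The brightest probe stands for a gene with several. On arrays simulated for 28 against 5 dpl with 10552 probes, 80% of 100 changes of 0.5 and 95% of 100 changes of 1 (log2) were recovered, with 10 false calls. The simulated noise was normal, had the spread of the fit and was independent between arrays and probes. Far fewer probes were changed than the 44.3% that passed in the data. The figures therefore check the fit and are not the power or error rate of these data. Promoter windows are the 250 bases before the start site. All members with a probe are named, as are genes drawn from the 6 with the smallest any-difference p past the threshold in each companion list, and the 2 genes most like each member that passed that test. The members and lists were chosen with earlier results of these data known. Alternatives left out each array in turn or changed the scaling, weights, spread, filter, samples fitted, probe rule or replicate block.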

Additional observations from a re-analysis of the deposited data

How the results depend on the processing

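Both falls of Atf3 from 5 dpl kept their call under all 18 alternatives. Members lower at 14 than at 5 dpl numbered 2, and 1 to 2 when 1 array was left out. At 28 against 5 dpl, 1 member was higher (0 to 1 when 1 array was left out, 0 with array weights) and 2 were lower (1 to 2 when 1 array was left out, and 1 with a replicate block, with cyclic loess or with only these time points fitted). Members differing among the time points numbered 2, and 1 to 3 when 1 array was left out. Same-numbered arrays had correlated deviations (r over 0.1) in 1 of 9 pairs, so the numbers were not taken as pairs. With the replicate number as a block the adjusted p of Junb at 28 against 5 dpl was 0.086, and no other member lost its call. Among genes named with these differences, the block also ended the call of Nfil3 at 14 against 5 dpl (0.0523). Differences near 0, none of which passed, changed sign. With 1 array left out, Fos ranged from -0.030 to 0.108 at 14 against 5 dpl (-0.0106, -0.0031), from -0.0907 to 0.0469 at 28 against 14 dpl (0.0113, 0.0182), and from -0.0214 to 0.0862 at 28 against 5 dpl (-0.0139, -0.0041). At 28 against 14 dpl Fos was 0.0038 with cyclic loess and 0.0022 when centred on probes above background, and at 28 against 5 dpl -0.03 with array weights. At 14 against 5 dpl, Jun ranged from -0.189 to 0.0091 and Ier2 from -0.0713 to 0.0639 (0.0518, and 0.027 with cyclic loess). Atf3 at 28 against 14 dpl ranged from -0.0915 to 0.078 (0.011, 0.00995, 0.0574), and was 0.0144 with cyclic loess and 0.0122 when centred. Dusp1 at 28 against 5 dpl ranged from -0.257 to 0.0542. The cause was not tested. With 1 array left out, 668 to 1227 probes were higher and 617 to 1352 lower at 14 against 5 dpl (1131 and 1062 with all arrays), and 442 to 1082 higher and 389 to 968 lower at 28 against 14 dpl (790 and 789).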
